A study of Homo sapiens with 37 samples.

Results

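The TAM receptors and their ligands were examined in K562, an established human erythroleukemia cell line. The set held 5 genes of the 32055 in the UMI table: the receptor genes *MERTK*, *AXL* and *TYRO3* and the ligand genes *GAS6* and *PROS1*. It was chosen because *MERTK* was higher in KO libraries, so the KO against control values of *MERTK* are given as a description without a test. The other 4 genes were taken for their place in the family. The data were 37 bulk SCRB-seq libraries, each made from the total RNA of lysed K562 cells, of which 26 were labelled KO and 11 control. For the KO cells, *ZBTB7A*, a zinc finger transcription factor, had been targeted with Cas9 and 1 of 2 gRNAs, and the control cells had received the Cas9 vector without a gRNA. Both groups therefore passed through electroporation and sorting, and every library came from the outgrowth of sorted single cells of 1 cell line. The labels give a well barcode of 6 bases for each library and no clone, gRNA or day, so p-values measure the spread between these libraries, some of which may be repeats of 1 clone.

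TAM receptors are receptor tyrosine kinases that bind the vitamin K-dependent proteins GAS6 and protein S, the product of *PROS1*. Both ligands bridge the receptor to phosphatidylserine on the surface of apoptotic cells or platelets. In macrophages, MERTK drives the uptake of apoptotic cells and dampens inflammatory signalling, and MERTK and AXL are also found on leukemic blasts. GAS6 binds all TAM receptors, whereas protein S acts through TYRO3 and MERTK and is better known as a cofactor of activated protein C in blood coagulation.

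On GRCh38, *MERTK* (ENSG00000153208) lies at chr2:111898607-112029561 on the plus strand, *AXL* (ENSG00000167601) at chr19:41219223-41261766 on the plus strand and *TYRO3* (ENSG00000092445) at chr15:41557675-41583589 on the plus strand. *GAS6* (ENSG00000183087) lies at chr13:113820549-113864076 and *PROS1* (ENSG00000184500) at chr3:93873051-93980003, both on the minus strand. The 250 bases before the start annotated in RefSeq were compared because *MERTK* and *GAS6* stood higher in KO libraries and *AXL* did not. The sequences are from RefSeq on GRCh38.p14, read 5′ to 3′ on the strand of the gene. They span chr2:111898357-111898606 for *MERTK*, chr13:113864077-113864326 for *GAS6* and chr19:41218973-41219222 for the first of the annotated *AXL* starts. Capitals mark GC boxes, the hexamer GGGCGG or its reverse complement CCGCCC, which proteins of the Sp1 family bind.
MERTK: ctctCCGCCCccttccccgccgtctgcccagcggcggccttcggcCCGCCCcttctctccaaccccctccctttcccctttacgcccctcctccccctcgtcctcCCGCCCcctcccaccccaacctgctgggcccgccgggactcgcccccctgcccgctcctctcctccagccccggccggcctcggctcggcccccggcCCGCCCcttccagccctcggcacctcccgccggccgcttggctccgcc
GAS6: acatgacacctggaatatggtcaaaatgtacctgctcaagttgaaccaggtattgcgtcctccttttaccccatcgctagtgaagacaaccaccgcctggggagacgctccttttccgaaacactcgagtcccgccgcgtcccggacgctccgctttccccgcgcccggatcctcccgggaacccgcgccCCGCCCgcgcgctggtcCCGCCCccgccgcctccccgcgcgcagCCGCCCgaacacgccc
AXL: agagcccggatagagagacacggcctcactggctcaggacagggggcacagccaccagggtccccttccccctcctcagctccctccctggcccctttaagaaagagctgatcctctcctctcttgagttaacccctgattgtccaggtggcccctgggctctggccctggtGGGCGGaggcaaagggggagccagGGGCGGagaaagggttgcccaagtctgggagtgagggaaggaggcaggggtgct
The *MERTK* window was 78.8% G and C and held 4 GC boxes, a number reached by 7.63% of 35116 RefSeq promoters of this length. The *GAS6* window was 66.8% G and C with 3 GC boxes, and the *AXL* window was 64.4% G and C with 2. At least 3 GC boxes were present in 13.9% of all promoters and at least 2 in 24.3%. CpG dinucleotides numbered 25 in the *MERTK* window, 31 in that of *GAS6* and 4 in that of *AXL*, against a median of 11 over all promoters. The first windows of *TYRO3* and *PROS1* were set beside these. The first window of *TYRO3*, which was not called, was richer in G and C than 96.7% of all promoters. It held 39 CpG and 3 GC boxes. That of *PROS1*, which was called higher, was richer than 48.1% and held 9 CpG and 2 GC boxes. The window before the second *TYRO3* start was richer than 51.1% and held 8 CpG and 0 GC boxes. That before the second *AXL* start was richer than 40.8% and held 13 CpG and 0 GC boxes. A link of these features to the differences was not tested. The *TYRO3* and *PROS1* windows lie inside the gene intervals given above, because the RefSeq starts differ from those positions. At least 1 GC box was present in 42.6% of all promoters. None of the 5 windows before the first start held AGATAA, the core of the site of erythroid GATA factors (9.17% of promoters on either strand), the CCAAT box (32% for CCAAT or ATTGG) or the E-box CACGTG (6.34%).

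All 5 genes were detected. Total UMIs per library ranged from 1070250 to 4270901 in the KO group and from 563235 to 4710809 in the control group, with the control GTTTAT the shallowest. The median total was 2030965 in the KO group and 3518944 in the control group, so a typical KO library was shallower. A unique molecular identifier (UMI) marks 1 captured transcript, and SCRB-seq reads its 3′ end, so a count does not grow with transcript length and levels of different genes are compared here as CPM, the UMI counts scaled by library sizes corrected with TMM. Capture can still differ between 3′ ends. *ZBTB7A* itself was not lower in KO libraries (log2 fold change 0.12, SE 0.09, adjusted p = 0.331 by edgeR's quasi-likelihood test). Reads of the 3′ end do not show whether the coding sequence carries an edit, so this value does not check the labels. Because each library is a bulk of cells, a higher level in each cell cannot be told apart from more cells that express the gene.

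The expression of *MERTK* was low in the control libraries and severalfold higher in the KO libraries. Controls held 0 to 13 *MERTK* UMIs with a median of 8, corresponding to 0 to 3.06 CPM with a median of 2.36. KO libraries held 6 to 54 UMIs with a median of 28.5, corresponding to 3.14 to 21.8 CPM with a median of 13.4. All 26 KO libraries stood above the highest control, GGGATT, although the lowest of them, GGCCAC, exceeded it by less than 0.1 CPM.

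The mean *MERTK* level was 2.11 CPM ± 0.907 (SD, n = 11) in controls and 13.8 CPM ± 4.39 (SD, n = 26) in KO libraries. The fit gave a log2 fold change of 2.52 with SE 0.20, a 5.75-fold difference, which ranked 40 among the 709 genes called higher. A call required both an adjusted p under 0.05 and a log2 fold change beyond 0.5 in either direction. Of the 10661 genes tested, 0.281% had groups that did not overlap and 0.169% had them with KO above control. Since *MERTK* was picked for this contrast, nothing is read from its rank. Only the control GTTTAT had no *MERTK* UMI, which at its depth allows up to 5.33 CPM by counting error alone. The variance between libraries over that of counting alone was 0.516 in controls (chi-square per degree of freedom), no more than counting noise gives. In KO libraries this ratio was 2.98, a spread beyond counting noise.

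The library GGCCAC stood apart among those labelled KO. It held 6 *MERTK* UMIs or 3.14 CPM, whereas the next lowest KO library, TTATTG, held 28 UMIs or 7.53 CPM. Its *AXL* level of 37.7 CPM was the highest of all 37 libraries. For *GAS6* it gave 16.7 CPM and for *PROS1* 43.4 CPM, both within the range of the controls. Without this library the *MERTK* log2 fold change was 2.57, and those of *GAS6* and *PROS1* were 0.74 and 0.73.

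*AXL* did not pass the test. Control libraries ranged from 11.7 to 34.3 CPM with a median of 17.4, and KO libraries from 12.8 to 37.7 CPM with a median of 21.9. Controls fell into a low set of 5 libraries between 11.7 and 13.5 CPM and a higher set of 5 between 22.3 and 34.3 CPM, with CGGTGG between them at 17.4 CPM. The KO libraries spread over nearly the same range, and 2 of 26 were above the highest control. The log2 fold change was 0.20 (SE 0.16, 95% confidence interval -0.13 to 0.53, adjusted p = 0.353, edgeR).

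Control libraries varied more for *AXL* than counting alone gives, with a chi-square per degree of freedom of 11.1 against 4.73 in KO libraries. This was the widest spread of the 5 genes among the controls, where the ratios of the other genes lay between 0.516 and 2.48.

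*TYRO3*, the remaining receptor, was at a similar level in both groups. It ranged from 15.9 to 29.9 CPM in controls and from 15.7 to 25.7 CPM in KO libraries, with a median of 21.4 CPM in each. The groups overlapped nearly throughout, with 1 KO library below the lowest control and none above the highest. The log2 fold change was -0.08 (SE 0.09, 95% confidence interval -0.25 to 0.10, adjusted p = 0.517, edgeR). In KO libraries the counts of *TYRO3* varied about as much as counting alone would give, with a chi-square per degree of freedom of 1.05.

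The make-up of the TAM receptor transcripts differed accordingly. *MERTK* made up 4.81% ± 2.14 (SD, n = 11) of the TAM receptor UMIs in controls and 24.2% ± 8.03 (SD, n = 26) in KO libraries. Its share ranged from 0 to 8.15% in controls and from 4.92% in GGCCAC to 38.0% in GCTAGA among KO libraries. *TYRO3* held 51.7% ± 10.9 of them in controls and 36.3% ± 3.78 in KO libraries, while *AXL* held 43.5% ± 10.3 and 39.6% ± 8.11. In KO libraries *MERTK* was still the least abundant TAM receptor on average, but in 3 of 26 it was above *TYRO3*. In some, TTAGTT among them (17.4 against 14.8 CPM), *MERTK* was above *AXL*. The receptors together reached 44.3 CPM ± 9.64 in controls and 58.0 CPM ± 8.07 in KO libraries. These shares follow from the choice of *MERTK* and were not tested.

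**Figure D1:**
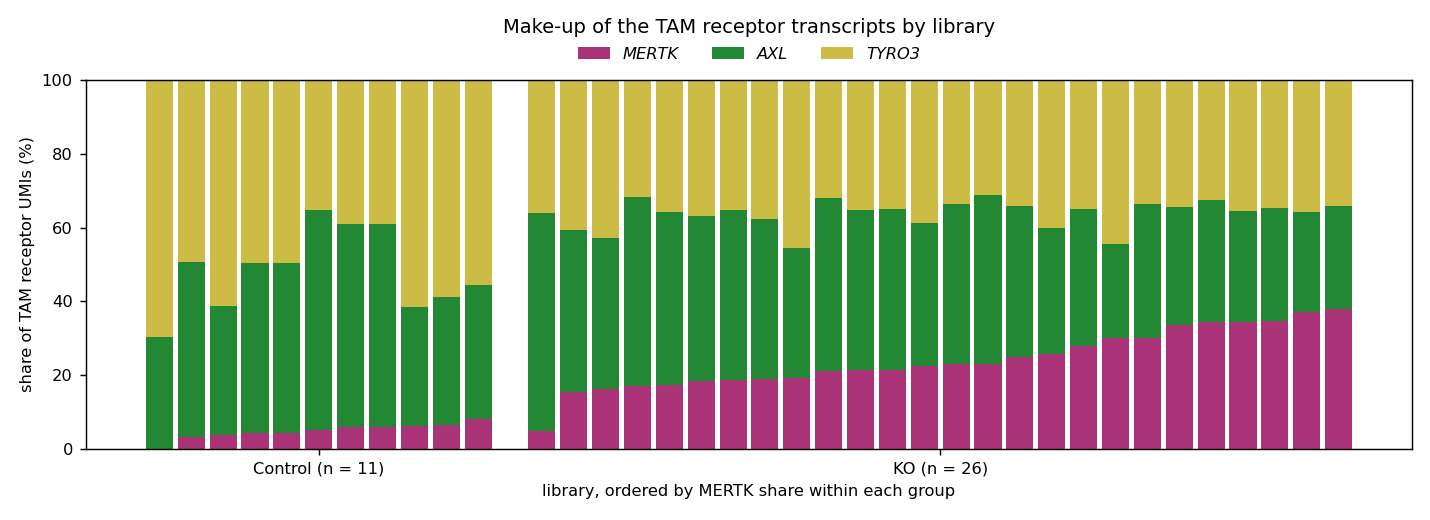
Share of each TAM receptor gene in the TAM receptor UMIs of a library (vertical axis, %), 1 bar per library, ordered by the *MERTK* share within the 11 control and the 26 KO libraries. *MERTK* made up 0 to 8.15% in controls and 4.92 to 38.0% in KO libraries.

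Both ligand genes rose in KO libraries. Of the 4 genes tested, *GAS6* and *PROS1* were called higher and no gene was called lower. Across all 10661 genes tested, 10.2% were called, 6.65% higher and 3.53% lower. With 4 genes, this count is a description of the family and not a test of it.

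*GAS6*, which encodes the ligand with the highest affinity for AXL, ranged from 9.72 to 18.6 CPM in controls with a median of 12.6. In KO libraries it ranged from 8.95 to 30.6 CPM with a median of 23.1. Of the 26 KO libraries, 18 were above the highest control, 7 lay within the control range and 1 was below it. The mean was 12.8 CPM ± 2.87 (SD, n = 11) in controls and 21.3 CPM ± 6.40 (SD, n = 26) in KO libraries. This was a log2 fold change of 0.72 (SE 0.16, 95% confidence interval 0.41 to 1.04, adjusted p = 0.000392, edgeR), a 1.65-fold difference.

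An antisense gene, *GAS6-AS1*, overlaps *GAS6* on the opposite strand, and the strand setting of the counting is not given in the sources used here. *GAS6-AS1* had 26 UMIs over all KO libraries and 30 over all controls, so few of the counted molecules were assigned to it. Reads of the antisense RNA counted as *GAS6* cannot be told apart from *GAS6* transcripts if the counting ignored strand. The *MERTK* interval likewise contains a pseudogene on the opposite strand, *RTRAFP1*, with 27 UMIs over all KO libraries and 28 over all controls.

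*PROS1* was the most abundant of the 5 genes in both groups and was higher in KO libraries by the same fold as *GAS6*. Controls ranged from 32.4 to 46.9 CPM with a median of 36.6, and KO libraries from 34.4 to 86.3 CPM with a median of 68.2. Of the KO libraries, 20 of 26 were above the highest control and the other 6 fell within the control range. The mean rose from 38.2 CPM ± 4.23 (SD, n = 11) to 63.4 CPM ± 15.6 (SD, n = 26). The log2 fold change was 0.72 (SE 0.12, 95% confidence interval 0.48 to 0.96, adjusted p = 9.61e-06, edgeR). Its pseudogene *PROS2P*, which can share reads with it, held 1 UMI in all 37 libraries.

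Thinning all libraries to the depth of the shallowest with edgeR's thinCounts ended both ligand calls, with log2 fold changes of 0.47 for *GAS6* (adjusted p = 0.599, edgeR) and 0.47 for *PROS1* (adjusted p = 0.372, edgeR). Drawing UMIs without replacement to the same depth kept both, at 0.93 (adjusted p = 0.000502, edgeR) and 0.59 (adjusted p = 0.00076, edgeR).

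The KO libraries with a raised level were largely shared between the ligand genes. Both *GAS6* and *PROS1* were above every control in 18 KO libraries, and only *PROS1* was in 2 others. In the remaining 6 KO libraries, GGCCAC among them, neither was. Except for GGCCAC, these libraries held *MERTK* at 10.6 to 17.4 CPM, at least 3 times the highest control. Because the KO libraries fell into these sets, no pooled correlation of *GAS6* with *PROS1* is given. *PROS1* made up 74.9% ± 5.08 of the ligand UMIs in controls and 75.1% ± 3.59 in KO libraries, so the balance between the ligand genes was about the same. The ligand transcripts together ranged from 45.1 to 57.4 CPM in controls and from 44.4 to 110.0 CPM in KO libraries.

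**Figure D2:**
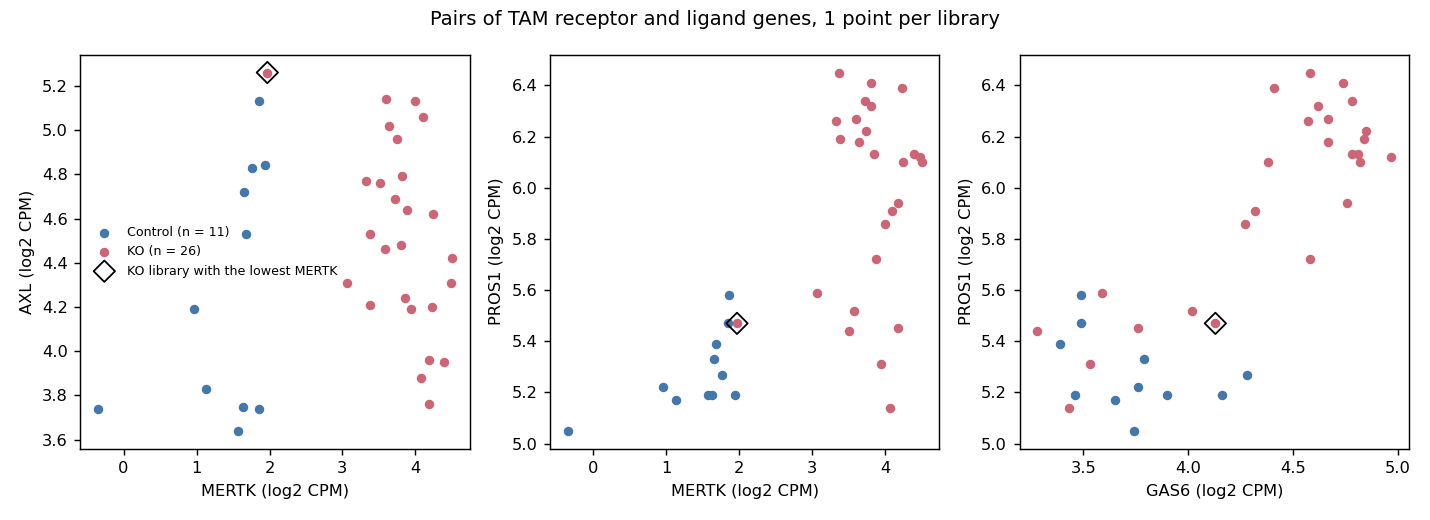
Log2 CPM (prior count of 2) of pairs of genes, 1 point per library, for 11 control and 26 KO libraries, with a diamond around the KO library with the lowest *MERTK*, GGCCAC. In the panel of *GAS6* and *PROS1*, 18 KO libraries lie above every control for both genes and 6 for neither, and in the panel of *MERTK* and *PROS1* most of the latter keep a raised *MERTK*.

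The order of the levels differed between the groups. In controls it was *PROS1*, *TYRO3*, *AXL*, *GAS6* and *MERTK* by mean CPM. *PROS1* was above *TYRO3*, and *GAS6* above *MERTK*, in 11 of 11 controls, whereas *TYRO3* exceeded *AXL* in only 8 of 11. In KO libraries *PROS1* was above *AXL* in 26 of 26. *AXL*, *GAS6* and *TYRO3*, at means of 23.2, 21.3 and 20.9 CPM, did not differ beyond their spread, with *AXL* above *GAS6* in 15 of 26 libraries and *GAS6* above *TYRO3* in 14. *MERTK* was last in both orders and stood below *TYRO3* in 22 of 26 KO libraries.

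Within the KO group, *MERTK* was not clearly related to any other member. Its log2 CPM was inversely related to that of *AXL* over the 26 KO libraries before correction, with Pearson's r of -0.47 (permutation p = 0.0130) and Spearman's rho of -0.45 (permutation p = 0.0220). After Benjamini-Hochberg adjustment over the 4 pairs with *MERTK*, these two-sided permutation p-values were 0.0521 and 0.0879. Without the 2 libraries farthest from the median of *MERTK*, GGCCAC and TTATTG, r was -0.41 and rho -0.43. Without GGCCAC alone rho was -0.38 (permutation p = 0.0615). For the pairs with *TYRO3*, *GAS6* and *PROS1*, r lay between -0.16 and 0.22 and the smallest adjusted permutation p was 0.453. In the 11 controls the same pair of *MERTK* and *AXL* gave r of 0.46 (permutation p = 0.135, adjusted p = 0.27). *MERTK* levels also followed depth over the KO libraries, with rho of -0.60 against total UMIs, and the part of depth in these correlations was not tested.

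The genes whose level over the 26 KO libraries was most like that of *MERTK*, among 8604 tested genes averaging 10 CPM or more, were *PGM3* (Spearman's rho 0.86), *MOSPD1* (0.84), *BEX2* (0.83), *PTAR1* (0.82) and *PARP14* (0.81). By Pearson's r only 1 of these 5 genes was again among the 5 most like *MERTK*. *PGM3* encodes an enzyme of UDP-N-acetylglucosamine synthesis, *BEX2* a small adaptor protein and *PARP14* a mono-ADP-ribosyltransferase. The most opposite were *CELF2* (-0.81), an RNA-binding protein gene, *LTV1* (-0.80), a ribosome biogenesis gene, and *CLPP* (-0.80), which encodes a mitochondrial protease. The central 95% of these 8604 genes lay between -0.60 and 0.61. All of the 8 named genes also followed the library total, with rho between -0.68 and -0.42 for the first 5 and between 0.56 and 0.61 for the last 3. Among the 8604 genes, *GAS6* ranked 2410, *TYRO3* 5106, *PROS1* 5159 and *AXL* 7568 by likeness to *MERTK*.

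The barcode composition of the libraries was unevenly divided between the groups: 12 of 26 KO libraries and 1 of 11 controls had GC-rich barcodes with at least 4 G or C. Within the libraries with AT-rich barcodes, *MERTK* had a mean log2 CPM of 1.39 ± 0.74 (SD, n = 8) in controls and 3.83 ± 0.44 (SD, n = 12) in KO libraries. For *GAS6* these values were 3.81 ± 0.29 and 4.56 ± 0.39, and for *PROS1* 5.28 ± 0.17 and 6.11 ± 0.30. The fit on these libraries alone gave a log2 fold change of 0.76 for *GAS6* (adjusted p = 0.000899, edgeR) and 0.84 for *PROS1* (adjusted p = 7.11e-06, edgeR). GC-rich barcodes held 1 control and were not compared on their own.

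To set *MERTK* beside the rest of its class, the receptor tyrosine kinases were counted over the same fit. Of 58 genes, 54 were in the table and 19 without *MERTK* passed the filter on low counts. Among these, 7 were called higher and 2 lower, or 47.4% against the 10.2% called over all tested genes. The p threshold alone was passed by 63.2% of them, against 33.8% of all genes. The median log2 fold change was 0.17, and that of all genes was -0.0046. Since receptors with low counts that pass the filter through 1 group must differ between the groups, this share describes the measured members only. *FLT1*, a VEGF receptor, had the largest difference, from 0.935 CPM ± 0.577 in controls to 6.10 CPM ± 3.46 in KO libraries. This was a log2 fold change of 2.65 (SE 0.38), and 24 of 26 KO libraries exceeded every control. *FLT1* was at most 1.8 CPM in controls and passed the filter through its KO counts. No test of it is given, though the counts above include it. *FGFR1*, a fibroblast growth factor receptor, rose from 18.4 CPM ± 9.39 to 66.7 CPM ± 16.8 (1.77, SE 0.18, adjusted p = 8.25e-10, edgeR).

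Among the others called higher, *LTK*, which is close to ALK, rose by 0.96 on the log2 scale, *PTK7*, a pseudokinase of Wnt signalling, by 0.90, *IGF1R*, the IGF1 receptor, by 0.89 and *MET*, the HGF receptor, by 0.66. *LTK* was also low in controls, with a median of 2.02 CPM against 4.21 CPM in KO libraries. Like *FLT1* it passed the filter largely through its KO counts, so no test of it is given, though the counts above include it. *EPHB6*, an ephrin receptor without kinase activity, fell by 1.73 on the log2 scale (SE 0.49), and 19 of 26 KO libraries were below every control. It was low in most KO libraries and passed the filter largely through its control counts. For this reason no test of *EPHB6* is given either, though the counts above include it. *FGFR4* fell by 0.57. The most abundant receptors that were not called were *EPHB4* (log2 fold change -0.26, adjusted p = 0.0479, edgeR), *ROR2* (-0.47, adjusted p = 0.000126) and *RYK* (0.08, adjusted p = 0.396). The first 2 passed the p threshold but not the fold threshold. Relative to these, *MERTK* lay between *FLT1* and *FGFR1* by size of the log2 fold change.

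Genes around the receptors were grouped by role, 74 in all, of which 43 were tested. In this list 6 genes were called higher and 1 lower (16.3% called, against 10.2% over all genes), with a median log2 fold change of 0.20. Among the genes of ligand maturation and receptor shedding, *FURIN*, a proprotein convertase, was called higher (0.58, SE 0.11, adjusted p = 7.06e-05, edgeR). *ADAM10*, a sheddase of cell surface proteins, was at 0.34 on the log2 scale (adjusted p = 0.000211), and *ADAM17*, which cleaves MERTK, was at 0.23 (adjusted p = 0.178). *VKORC1L1*, a vitamin K reductase, and *GGCX*, the carboxylase that makes both ligands active, had log2 fold changes of 0.07 and -0.15 and did not pass (adjusted p = 0.331 and 0.0999).

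Both tested partners of protein S in coagulation were called higher, against 6.65% of all tested genes. With 2 genes, this count is a description only. *TFPI*, which encodes the tissue factor pathway inhibitor for which protein S is a cofactor, rose from 269 CPM ± 114 in controls to 610 CPM ± 308 in KO libraries (log2 fold change 1.19, SE 0.31, adjusted p = 0.00297, edgeR). Of 26 KO libraries, 20 were above the highest control for *TFPI*. *PROCR*, the endothelial protein C receptor, rose by 0.80 (SE 0.19, adjusted p = 0.00114, edgeR), but only 6 of 26 KO libraries were above its highest control. The other 7 genes of this group had too few counts to be tested.

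Other phosphatidylserine receptors and bridging proteins were less uniform. *THBS1*, thrombospondin 1, rose from 7.92 CPM ± 3.57 to 29.9 CPM ± 19.7 (log2 fold change 1.89, SE 0.34, adjusted p = 5.46e-05, edgeR), and *ITGB5*, an integrin subunit that pairs with the product of *ITGAV*, rose by 0.55 (adjusted p = 0.000621). *ITGAV* passed the p threshold with 0.40 (adjusted p = 0.00304). *MFGE8*, the bridging protein of this integrin, gave -0.31 (adjusted p = 0.264), *SCARB1* 0.06 (adjusted p = 0.577) and *HAVCR2*, or TIM-3, 0.03 (adjusted p = 0.777).

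Of the 7 tested genes of phosphatidylserine exposure none was called, against 10.2% of all genes, although 4 passed the p threshold upward and 1 downward, or 71.4% against 33.8% of all genes. They included *PLSCR1*, a phospholipid scramblase (0.27, adjusted p = 0.000523, edgeR), and *TMEM30A*, the subunit shared by flippases (0.20, adjusted p = 0.00127). *ATP11B* gave -0.24 (adjusted p = 0.00734).

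In engulfment and lipid handling, *VAV1*, a guanine nucleotide exchange factor, was called lower (-0.59, SE 0.18, adjusted p = 0.0112, edgeR), with 15 of 26 KO libraries below every control. It was the 1 gene called of 7 tested, or 14.3% against 10.2% of all genes. *ELMO2*, a subunit of the RAC1 exchange factor, lay at 0.49, just under the fold threshold, and *RXRA* at 0.32 (adjusted p = 0.000152 and 0.00339). *RAC1* itself gave 0.04 (adjusted p = 0.431). Below the receptors, 1 of 16 tested genes was called, or 6.25% against 10.2% of all genes. The p threshold alone was passed by 18.8%, against 33.8% of all genes. The called gene was *PIK3CA*, a catalytic subunit of PI3-kinase, at 0.58 (SE 0.10, adjusted p = 1.12e-05, edgeR). Of the abundant others, *GRB2* and *PTK2* had log2 fold changes of 0.04 and 0.17, and neither passed the test (adjusted p = 0.57 and 0.0807).

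Markers of other blood cell types were set beside these values. The summed level of 14 macrophage and monocyte markers was 4.09 to 11.4 CPM in controls and 4.73 to 20.1 CPM in KO libraries. Of this list, *C1QA*, *C1QB*, *C1QC* and *CD68* had no UMI or no row, and *CSF1R*, *SPI1* and *CD14* were too low to be tested. *ITGAM*, the only gene of the list above the count filter, averaged 1.82 CPM ± 0.859 in controls and 4.40 CPM ± 2.71 in KO libraries. Summed megakaryocyte markers were 1.02 to 9.97 CPM in controls and 2.69 to 60.9 CPM in KO libraries, so that some libraries of both groups held more of them than of *MERTK*. *GP1BA*, again the only gene above the filter, averaged 1.15 CPM ± 0.636 in controls and 13.5 CPM ± 13.4 in KO libraries, and *GP9* and *GP1BB* had no UMI or no row. Both genes were low in controls and passed the filter through their KO counts, so no test of them is given. The part of these genes in the *MERTK* and ligand values was not tested.

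Erythroid markers were abundant in both groups, with *HBG2* at 2550 CPM ± 780 in controls and 2400 CPM ± 1000 in KO libraries. Their sum ranged from 4260 to 9160 CPM in controls and from 3060 to 9900 CPM in KO libraries. Of 13 tested erythroid genes, *ALAS2* (1.41, adjusted p = 0.00577) and *EPOR* (0.97, adjusted p = 1.8e-08) were called higher and none lower, or 15.4% against 10.2% over all genes. The p threshold alone was also passed by *TAL1* at 0.39 and by *GATA1*, *KLF1* and *TFRC* at -0.19, -0.22 and -0.37. The shift of erythroid genes beside the TAM genes was likewise not tested as a part of their values.

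Neighbours of *MERTK* on chromosome 2 did not share its difference. Of 63 genes annotated within 1 Mb on either side, 12 were tested, with log2 fold changes between -1.39 and 0.38 and a median of -0.02. The p threshold was passed by 5 of the 12. Over all genes 33.8% passed it and 10.2% were called. Here 1 gene was called: *ACOXL*, an acyl-CoA oxidase-like gene 780 kb before *MERTK*, which was lower in KO libraries (-1.39, SE 0.14, adjusted p = 8.46e-10, edgeR). The nearest tested gene before *MERTK* was *ANAPC1*, 13.9 kb away (-0.18, adjusted p = 0.0581), followed by *MIR4435-2HG* (0.10, adjusted p = 0.204). After it came *TMEM87B*, 25.7 kb away (0.38, adjusted p = 0.0262), and *ZC3H8* (0.07, adjusted p = 0.376).

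**Figure D3:**
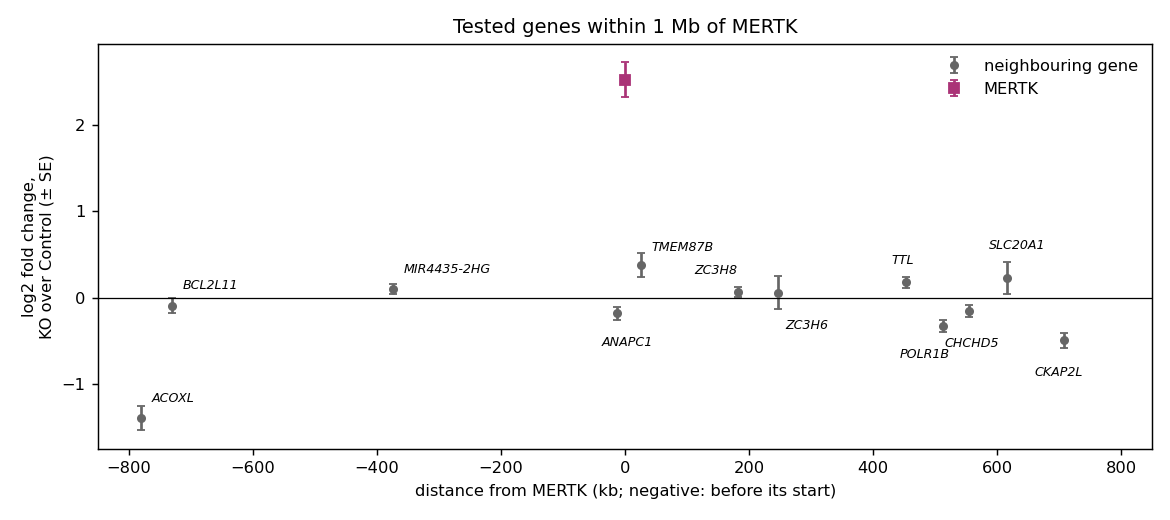
Log2 fold change of KO over control with SE (vertical axis) for *MERTK* and the 12 tested genes within 1 Mb, against their distance from *MERTK* in kb (negative before its start). The neighbours lie between -1.39 and 0.38 and *MERTK* at 2.52.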

How the data were processed

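RNA of K562 cells was measured in 26 KO and 11 control libraries by bulk SCRB-seq. The authors aligned the reads to hg38 with STAR (2.6.0a per the submitters' processing notes) and obtained UMI counts with zUMIs on the Ensembl GRCh38.84 annotation (zUMIs version not given in the sources used here), and the deposited values are raw UMI counts. Columns were matched to samples by barcode and group label. Symbols and positions are from GENCODE release 44.

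The main test was the robust quasi-likelihood test of edgeR 4.0.16 (R 4.3.3) after filterByExpr and TMM, without covariates. Its p-values were Benjamini-Hochberg adjusted over all 10661 tested genes, those of an alternative over the genes it tested, and those of correlations over 4 pairs. The thresholds of a call were 0.05 for the adjusted p and 0.5 for the size of the log2 fold change. CPM have no prior count and log2 CPM have one of 2. The SE is the absolute log2 fold change over the square root of F. Permutation tests were two-sided with 100000 resamples. No libraries were merged: the smallest chi-square per degree of freedom among 380 pairs within a group was 1.139. The fit was tested on simulated data. With 3 counts taken as the most that a count of 0 allows, floors and counting ratios cover counting error only.

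The members, the lists (receptor tyrosine kinases, TAM pathway, cell type markers) and the rule for named genes were chosen with earlier results of these data known. Named were the 5 members, every called list gene, up to 3 abundant genes per list group that were not called, called and nearest neighbours of *MERTK*, the genes most and least like it, markers and *ZBTB7A*. A few genes that the rule would name are not reported here, though counts include them. Alternatives were limma-voom (limma 3.58.1), DESeq2 1.42.0, other scalings, filters, libraries and prior counts. Thinning drew UMIs without replacement down to the smallest total. It replaced edgeR's thinCounts after the results of the latter were seen, and thinCounts is kept as an added alternative. Over the libraries thinned, thinCounts gave 1.709 times the expected UMIs for genes expected at 1 or fewer, and sampling without replacement 0.997 times.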

Additional observations from a re-analysis of the deposited data

How the results depend on the processing

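The rises of *GAS6* and *PROS1* kept their direction and passed the test in every alternative that gives a p except thinning with edgeR's thinCounts, an alternative added after the data were seen. There both were at 0.47 (adjusted p = 0.599 and 0.372, edgeR), *MERTK* was at 1.70 and *TYRO3* at 0.27, and 325 genes and 3 receptor tyrosine kinases were called and 0 of 10 tested genes near *MERTK* (1 at an unadjusted p under 0.05). In the other alternatives their log2 fold changes ran from 0.67 to 0.93 and from 0.59 to 0.84 over the fits on all or a chosen part of the libraries, and from 0.69 to 0.79 and 0.70 to 0.76 when each library was left out in turn. *MERTK* ran from 2.47 to 2.58 and *AXL* from 0.14 to 0.33 when leaving out libraries. As a difference of mean log2 CPM with a prior count of 5, *MERTK* gave 1.93. After thinning every library to the smallest total without replacement, *MERTK* fell under the count filter and gave no value, and *TYRO3* was at 0.01 (adjusted p = 0.987, edgeR) in place of -0.08. The cause was not tested.

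Genes called numbered 1085 by default, 1720 without a filter, 672 among genes averaging 10 CPM or more, and 627 after thinning, the first alternative testing 32055 genes and the others 8588 and 7885. Receptor tyrosine kinases called numbered 4 with the 10 CPM filter and 5 after thinning, in place of 9. How many receptors these fits tested is not given here, so no share is read from the counts. Pathway genes called numbered 13 of 71 without a filter, in place of 7 of 43. Genes called near *MERTK* numbered 2 with limma-voom, DESeq2 or without the shallowest library (GTTTAT), 3 without a filter, and 1 to 2 when leaving out each library, in place of 1. The 8 libraries whose removal gave 2 were KO replicates 6, 12, 20, 22 and 24 and control replicates 5, 7 and 8, numbered in accession order. *CKAP2L*, at -0.49 by default, passed the fold threshold in 12 of these fits. After thinning, the 1 gene called was *TMEM87B*. Without GGCCAC the rho of *MERTK* with *AXL* was -0.38, and by Pearson's r, 1 of the 5 genes most like *MERTK* was retained.

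No paired analysis was possible because the labels give no replicate numbers that could pair KO with control libraries. *MERTK* rests on few molecules: at most 13 UMIs in a control.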

Other observations

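Without the filter on low counts, 6 further genes of the TAM pathway list were called. In that fit 1720 of 32055 genes were called, and 13 of the 71 list genes that have a row. The 6 genes were named after their values were seen and rest on few UMIs or on part of the libraries. Because their calls picked them, no test of them is given. *CD36*, a scavenger receptor that binds oxidised lipids and phosphatidylserine, ranged from 0.867 to 49.9 CPM in controls, with a median of 39.5, and from 0 to 1.85 CPM in KO libraries. Its log2 fold change was -4.52 (SE 0.50), and 9 of 26 KO libraries were below the lowest control. *LRP1*, a large endocytic receptor of engulfment, ranged from 0 to 1.30 CPM in controls and from 0.461 to 9.76 CPM in KO libraries (2.48, SE 0.42). Of 26 KO libraries, 20 were above every control for *LRP1*. *ATP8A2*, a flippase gene, had 15 UMIs over all KO libraries and 0 over the controls. *ELMO1*, *PLCG2* and *STAB2* were called lower (-1.89, -1.15 and -1.93).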
